A study of Mus musculus with 20 samples.

Results

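Meiotic cohesin genes and germline genes were examined in embryonic mouse hearts, together with subunits of the complex that keeps such genes silent outside the germline. Of the 48795 genes in the table, 10 were followed: 7 meiotic and germline genes (Rec8, Meioc, Stag3, Smc1b, Sycp3, Hormad1 and Tex101) and 3 repressor subunits (E2f6, Pcgf6 and L3mbtl2). Rec8 and Meioc were selected on these data, because they were lower in both mutant strains, so their differences between groups are given as a description with no test. Only relations within groups, with group means removed, were tested for them. The other 8 were chosen by function, as further meiotic genes normally silenced in soma by E2F6 and Polycomb, and as their repressors.

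Cohesin is a ring of proteins that holds sister chromatids together. Germ cells in meiosis exchange subunits of the mitotic ring: REC8 takes the place of the kleisin RAD21, SMC1B that of SMC1A, and STAG3 that of STAG1 or STAG2. In somatic cells many germline genes are held silent by a variant Polycomb complex, PRC1.6, in which E2F6 and the MGA and MAX pair read DNA, with PCGF6 and L3MBTL2 as further subunits. DNA methylation silences an overlapping set of germline genes.

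Hearts were taken at E13.5 (days of embryonic development), before septation is complete, from mice kept on a C57BL/6J background, and poly(A)-selected RNA was sequenced. There were 20 libraries in 4 groups of 5: Dp3Tyb hearts, Ts1Rhr hearts, and for each strain a set of wild-type (WT) littermates. Both strains model Down syndrome and carry an extra copy of part of mouse chromosome 16, from Mir802 to Zbtb21 in Dp3Tyb and from Cbr1 to Fam3b in Ts1Rhr, in every cell. The study describes heart defects in Dp3Tyb and none in Ts1Rhr, although Ts1Rhr replicates 1 and 2 are labelled as having defects and were kept with the other 3 by genotype. None of the 10 genes lies on chromosome 16, and thus each was present in its usual 2 copies. A strain with its WT littermates is called a cohort here.

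Libraries held between 6.60 and 19.6 M reads (M, mega). In Dp3Tyb hearts all 27 tested protein-coding genes within the duplication had a value above WT, with a median log2 fold change of 0.52, and in Ts1Rhr hearts 21 of 22 did, with a median of 0.49. Mitochondrially encoded reads made up 4.85% to 19.5% of a library, and 7 libraries were over 10%: replicate 5 of both groups of the Dp3Tyb cohort, WT replicates 1, 2 and 4 of the Ts1Rhr cohort, and Ts1Rhr replicates 1 and 2. Values below are normalized read counts, that is, reads divided by a size factor of the library, and 1 read was worth between 0.724 and 2.94. Heart identity was checked on 9 cardiomyocyte markers, led per kilobase (kb) of exon by Actc1 and Myh7, whose summed values were between 3.06e+05 and 5.25e+05 in every library.

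Promoter sequence was compared first, because E2F6 is known to bind at a short E2F core and MGA with MAX at an E-box. RefSeq promoters (GRCm38.p6, 250 bases before to 50 bases after a start) were found for all 10 genes. The E2F core was searched as TCCCGC or GCGGGA, which covers both strands, and the E-box as CACGTG, which reads the same on both. The 2 motifs do not overlap in the windows shown. Below are the 30 bases around each E2F core in the genes' own direction, with motifs in capitals.

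Rec8, chr14:55618116-55618145, plus strand: gtgtgcacctgaTCCCGCtggagggcgaca

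Meioc, chr11:102665345-102665374, plus strand: agcttcctttgaGCGGGAaacatcttcagc

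Stag3, chr5:138280495-138280524, plus strand: tatcccgtgcctTCCCGCgtttttttctaa

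Smc1b, chr15:85131987-85132016, minus strand: aaaagaatttctTCCCGCgctttttttttt

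Sycp3, chr10:88459428-88459457, plus strand: aaggaaggaacaGCGGGAaagtgctgcttc

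Hormad1, chr3:95559570-95559599, plus strand: gcgcagcttttgGCGGGAatagtggtctgg

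E2f6, chr12:16810900-16810929, plus strand: ggaccggtgtgcGCGGGAgatctaacggac

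The core was present once in 6 of the 7 meiotic and germline genes, Tex101 being the exception, and also once in E2f6 itself, and no match was found in Pcgf6 or L3mbtl2. It was present in 20.02% of all 27025 promoters and in 36.4% of the 10761 promoters of tested genes. Its first base lay 38 bases before the start in Rec8, 47 in Smc1b and 2 in Stag3, against 228 bases before it in Meioc. For Rec8, Meioc, Stag3 and E2f6 the start used by this table lies inside the gene's outermost annotated limits, so these windows fall within the annotated gene wholly or in part.

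The E-box was found in 3 of the 7 genes and in none of the repressors, against 7.24% of all promoters and 10.01% of those of tested genes. The windows below show the E-box nearest to the start in each.

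Stag3, chr5:138280327-138280356, plus strand: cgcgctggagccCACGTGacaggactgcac

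Sycp3, chr10:88459532-88459561, plus strand: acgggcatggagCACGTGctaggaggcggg

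Hormad1, chr3:95559645-95559674, plus strand: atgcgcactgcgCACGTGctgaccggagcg

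Sycp3 and Hormad1 each held 2 E-boxes and Stag3 held 1, while Rec8 and Meioc held none. In other sets of promoters the core and the E-box were in 14 and 5 of 26 further meiotic genes, in 8 and 10 of 17 further germline genes, and in 5 and 2 of 12 mitotic cohesin genes. The 7 promoters had a median of 24 CpG dinucleotides, against 7 over all promoters and 21 over those of tested genes. The meiotic and germline genes other than Rec8 and Meioc were chosen as genes silenced by E2F6. Nothing is therefore read from their motif shares. A match is only a match of letters, and binding was not measured.

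Rec8 encodes the kleisin of meiotic cohesin and lies at chr14:55618002-55625395 on the plus strand (GRCm38.p6). Its normalized values were 213, 229, 237, 242 and 153 in WT replicates 1 to 5 of the Dp3Tyb cohort, and 109.8, 153, 155, 127 and 105 in Dp3Tyb replicates 1 to 5. The groups overlapped only because of WT replicate 5, the shallowest library, which lay just below 1 Dp3Tyb heart, and all other WT hearts were above every Dp3Tyb heart. In the Ts1Rhr cohort the values were 189, 179, 192, 170.3 and 201 in WT and 126, 104, 155, 119 and 125 in Ts1Rhr, and the groups did not overlap.

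The Dp3Tyb mean of 129.96 ± 23.4 was 60.5% of the WT mean of 215 ± 36.4 (SD over 5 hearts), which as a log2 fold change was -0.72 ± 0.16 (SE). The Ts1Rhr mean of 126 ± 18.5 was 67.7% of the WT mean of 186 ± 11.7, a log2 fold change of -0.57 ± 0.11. Fold changes here are on the log2(value + 1) scale. In whole hearts, fewer cells of a type and less RNA per cell cannot be told apart. Ordered by mean, the 2 WT groups came first and overlapped each other, and the 2 mutant groups followed and overlapped each other. Every mutant heart of either strain was below every WT heart of the Ts1Rhr cohort.

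**Figure D1:**
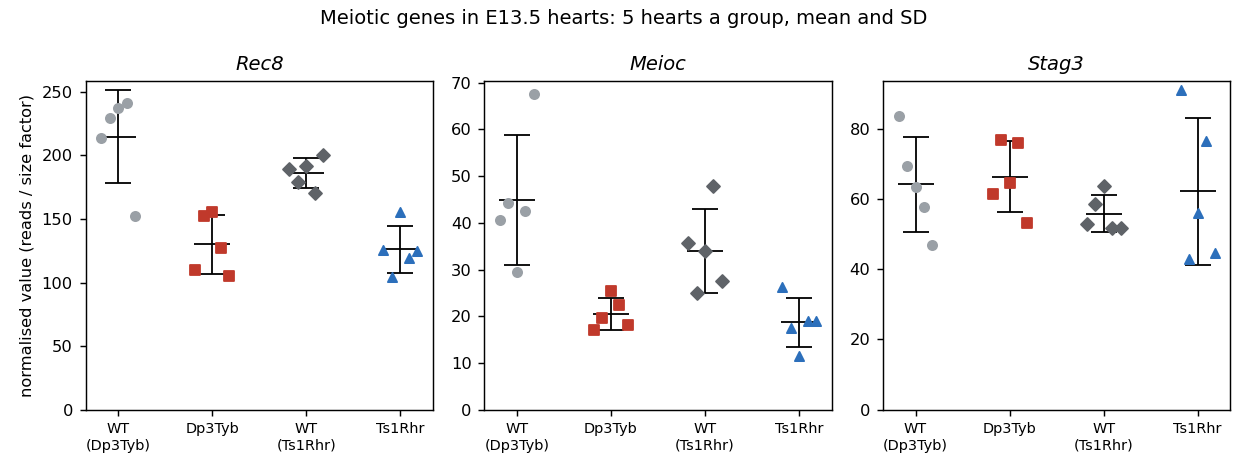
Normalized values of Rec8, Meioc and Stag3 (y axis, reads divided by the size factor) in the 4 groups, with 1 point per heart, horizontal bars for means and error bars for the SD of 5 hearts. For Rec8 and Meioc the mutant groups sit below their WT littermates with at most 1 or 2 hearts overlapping, while for Stag3 the groups lie over each other.

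Read support for Rec8 was between 52 and 323 reads per heart, 3513 in all. From reads alone, counting error would give an SD of 15.7 in the WT group of the Dp3Tyb cohort, where the measured SD was 36.4. It would give 14.5 in the WT group of the Ts1Rhr cohort, where the measured SD was 11.7. Thus WT hearts of the Ts1Rhr cohort were no more spread than counting error gives, and the wider spread of the other WT group came with its replicate 5. Without the 7 libraries over 10% mitochondrial, the log2 fold change of Rec8 was -0.77 in Dp3Tyb and -0.56 in Ts1Rhr.

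Meioc encodes a partner of the RNA helicase YTHDC2 that germ cells need to carry on through meiotic prophase, and lies at chr11:102665351-102682240 on the plus strand. Its values were 40.6, 44.2, 29.4, 42.6 and 67.5 in WT hearts of the Dp3Tyb cohort and 17.0, 19.6, 25.4, 22.4 and 18.2 in Dp3Tyb hearts. These groups did not overlap. They were 35.6, 24.95, 34.0, 47.8 and 27.5 in WT hearts of the Ts1Rhr cohort and 26.3, 17.6, 11.5, 18.9 and 19.0 in Ts1Rhr hearts. Here 1 WT heart, replicate 2, lay below the highest Ts1Rhr heart, replicate 1.

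The Dp3Tyb mean of 20.5 ± 3.40 was 45.8% of the WT mean of 44.8 ± 13.9 (SD over 5 hearts), and the log2 fold change was -1.05 ± 0.22 (SE). The Ts1Rhr mean of 18.7 ± 5.27 was 54.9% of the WT mean of 34.0 ± 8.93, with a log2 fold change of -0.84 ± 0.24. The support was thin, at 13 to 58 reads per heart and 584 reads in all. Counting error alone would give an SD of 4.31 in Dp3Tyb and 4.22 in Ts1Rhr, close to the measured spread, and 8.17 in the WT group of the Dp3Tyb cohort. Without the libraries over 10% mitochondrial, the log2 fold change was -0.86 in Dp3Tyb and -0.89 in Ts1Rhr, the latter on the few hearts named above for Rec8.

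For scale, among all genes tested the mutant group lay wholly below its WT littermates in 70 of 14763 genes in Dp3Tyb (0.474%) and in 74 of 14867 in Ts1Rhr (0.498%). Meioc was among the first and Rec8 among the second. Both had been chosen for lower values in these contrasts, so nothing is read from this. The fold changes of the 2 strains differed by -0.15 ± 0.19 for Rec8 and -0.22 ± 0.33 for Meioc (Dp3Tyb minus Ts1Rhr, SE). Both genes were picked for being lower in both strains, so likeness of the strains follows from the choice.

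Stag3, the meiotic counterpart of STAG1 and STAG2, lies at chr5:138272514-138312397. Its values were 83.5, 69.3, 63.4, 57.6 and 47.0 in WT and 61.3, 76.7, 64.4, 76.0 and 53.1 in Dp3Tyb. In the Ts1Rhr cohort they were 52.9, 58.6, 63.6, 51.7 and 51.8 in WT and 91.0, 42.9, 55.9, 76.5 and 44.6 in Ts1Rhr, so that Ts1Rhr hearts lay on both sides of the WT hearts. The log2 fold change was 0.06 ± 0.17 in Dp3Tyb (95% interval -0.32 to 0.43) and 0.10 ± 0.21 in Ts1Rhr (-0.35 to 0.55), with limma adjusted p-values of 0.99996 and 0.884. Stag3 overlaps Gpc2, which runs on the opposite strand over 6370 bases and held 11125 reads, against 1325 for Stag3. Whether reads were counted by strand is not given in the sources used here, so reads of such partners cannot be told apart.

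Rec8 had been selected for lower means in mutant hearts, and no difference was detectable for its meiotic cohesin partner Stag3. No test compared the 2 genes with each other.

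Smc1b, the meiotic counterpart of SMC1A, was near the limit of detection, with 1 to 12 reads per heart and 116 in all. Reads per heart were 4, 1, 3, 6 and 2 in WT and 5, 10, 3, 6 and 6 in Dp3Tyb, and 5, 7, 4, 4 and 4 in WT and 11, 12, 9, 8 and 6 in Ts1Rhr. The mean normalized value was 3.62 ± 2.04 in WT and 5.47 ± 2.52 in Dp3Tyb, and 5.49 ± 2.11 in WT and 8.83 ± 3.59 in Ts1Rhr (SD, n = 5 each). All 4 groups overlapped their comparators. Smc1b did not pass the filter on low values (at least 10 in 5 of the 10 libraries of a cohort). In a limma fit with no such filter its log2 fold change was 0.55 ± 0.44 in Dp3Tyb and 0.58 ± 0.36 in Ts1Rhr, with adjusted p-values of 0.99992 and 0.819.

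Sycp3, a protein of the meiotic chromosome axis, had 1 to 12 reads per heart and 85 in all. Reads per heart were 6, 3, 1, 5 and 1 in WT and 5, 12, 6, 2 and 4 in Dp3Tyb, and 1, 8, 1, 4 and 1 in WT and 5, 8, 2, 7 and 3 in Ts1Rhr. Without the filter its log2 fold change was 0.53 ± 0.48 in Dp3Tyb and 0.54 ± 0.57 in Ts1Rhr, with limma adjusted p-values of 0.99992 and 0.819. A difference was not detectable at this depth for Smc1b or Sycp3, whose intervals ran from -0.41 to 1.51 and from -0.51 to 1.56 in Dp3Tyb. Sycp3 overlaps Chpt1 on the opposite strand over 3724 bases, and Smc1b overlaps Fam118a over 52892 bases. These partners held 17513 and 4188 reads.

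Hormad1, another axis protein, had 4 reads in the whole series, in replicate 2 of WT and of Dp3Tyb in the Dp3Tyb cohort and in Ts1Rhr replicate 2. Tex101, a surface protein of germ cells, had 0 reads in 317 M, which allows a level of up to 0.00946 reads per M reads. These limits cover counting error only. Smc1b, Sycp3, Hormad1 and Tex101 were thus listed with few reads or none in mutant and WT hearts alike, and 6 of the 10 genes passed the filter in both strains.

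Levels of different genes were compared per kb of exon. Rec8 was the highest of the 7 meiotic and germline genes, at 45.3 per kb over all 20 hearts, followed by Stag3 at 10.8, Meioc at 6.32, Sycp3 at 3.13 and Smc1b at 0.999. Each meiotic cohesin subunit was far below its mitotic counterpart: Rec8 was at 3.50% of Rad21, Stag3 at 3.84% of Stag2 and Smc1b at 0.297% of Smc1a. The 4 groups of hearts kept this order of levels for all 3 pairs.

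**Figure D2:**
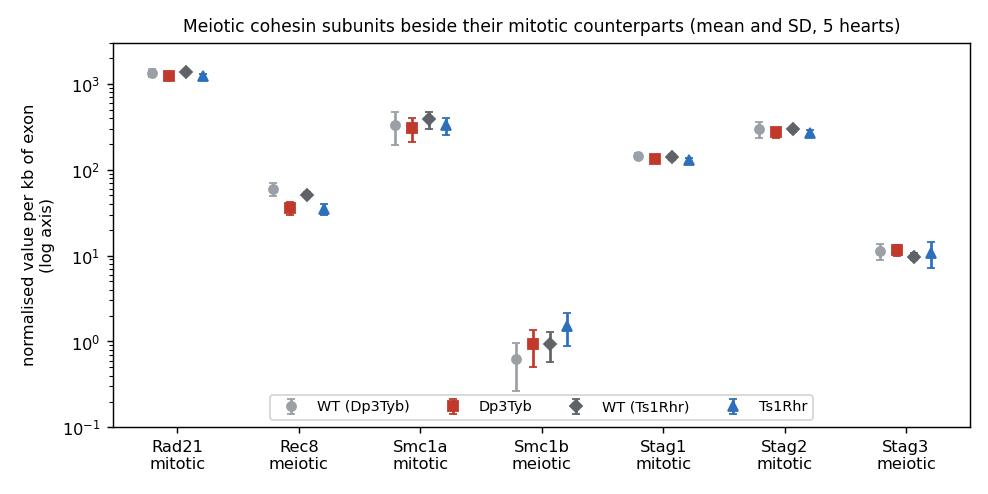
Normalized value per kb of exon (log axis) for mitotic and meiotic cohesin subunits, with points for group means and error bars for the SD of 5 hearts. Rad21, Smc1a, Stag1 and Stag2 lie above Rec8, Smc1b and Stag3 in all 4 groups, and Rec8 is the highest of the meiotic subunits.

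The mitotic cohesin genes were described as a list of 17, with the loaders, acetylases, releasing factors and protectors of cohesin. None was past an adjusted p of 0.05 in limma in either strain, by edgeR or by DESeq2. At an unadjusted p under 0.05 there were 0 of 17 in Dp3Tyb and 4 of 17 in Ts1Rhr, where 2.80% and 5.52% of all genes tested were. Of all genes tested, 51.1% in Dp3Tyb and 50.4% in Ts1Rhr had a fold change below 0. In the list, fold changes were below 0 for 16 of 17 in Dp3Tyb, with a median of -0.09, and for 14 of 17 in Ts1Rhr, with a median of -0.17, against medians of -0.0027 and -0.0016 over all genes tested. Rad21, the kleisin of somatic cells, had log2 fold changes of -0.12 ± 0.09 and -0.15 ± 0.06 (SE), and Smc3 of -0.07 ± 0.27 and -0.22 ± 0.19. The largest mean values were those of Esco2, which acetylates cohesin in S phase, at -0.21 ± 0.18 and -0.34 ± 0.14, and of Sgo1, which protects centromeric cohesion, at -0.11 ± 0.15 and -0.29 ± 0.12.

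No difference was detected for the repressor genes, whose groups overlapped in both cohorts. E2f6 (chr12:16810909-16826752), the DNA-binding subunit, was at 949, 1007, 998, 1051 and 875 in WT and at 1016, 1056, 1102, 976 and 808 in Dp3Tyb. In the Ts1Rhr cohort it was at 916, 944, 982, 917 and 851 in WT and at 933, 876, 1017, 996 and 934 in Ts1Rhr. Dp3Tyb hearts reached beyond the WT hearts on both sides, and Ts1Rhr hearts on the upper side. The log2 fold change of E2f6 was 0.02 ± 0.09 in Dp3Tyb (95% interval -0.18 to 0.21) and 0.04 ± 0.06 in Ts1Rhr (-0.09 to 0.18), with limma adjusted p-values of 0.99996 and 0.831.

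Pcgf6 (chr19:47033617-47050939), the Polycomb ring finger subunit that defines PRC1.6, was at 175, 192, 200.2, 172 and 173 in WT and at 175, 152, 174, 199.8 and 130.1 in Dp3Tyb. In the Ts1Rhr cohort it was at 165, 182, 178, 139.7 and 179 in WT and at 159, 138, 165, 172 and 178 in Ts1Rhr. The groups overlapped in both cohorts, and the lowest Dp3Tyb heart was replicate 5. The log2 fold change of Pcgf6 was -0.15 ± 0.12 in Dp3Tyb (interval -0.41 to 0.11) and -0.05 ± 0.11 in Ts1Rhr (-0.29 to 0.18), with limma adjusted p-values of 0.99996 and 0.877.

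L3mbtl2 (chr15:81663889-81688315), a reader protein of the same complex, was at 389.5, 348, 406, 384 and 223 in WT and at 398, 346, 333, 329 and 215 in Dp3Tyb. In the Ts1Rhr cohort it was at 368, 379.7, 384, 262 and 327 in WT and at 328, 272, 429.8, 366 and 347 in Ts1Rhr. The lowest heart of both groups of the Dp3Tyb cohort was replicate 5, the library with the highest mitochondrial share of its group, and the same held for WT replicate 4 and Ts1Rhr replicate 2. The log2 fold change of L3mbtl2 was -0.11 ± 0.19 in Dp3Tyb (interval -0.53 to 0.32) and 0.02 ± 0.13 in Ts1Rhr (-0.27 to 0.31), with limma adjusted p-values of 0.99996 and 0.976.

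**Figure D3:**
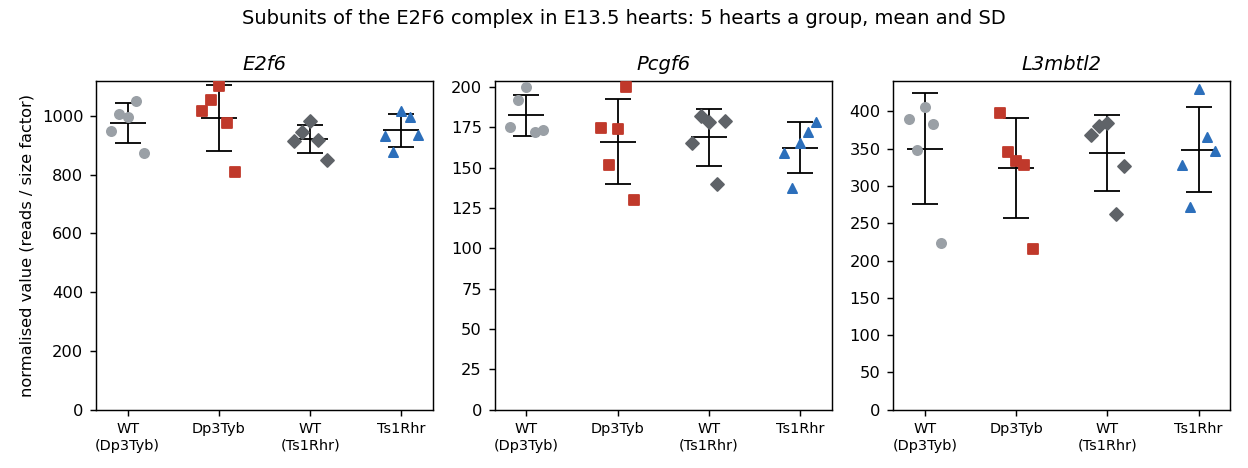
Normalized values of E2f6, Pcgf6 and L3mbtl2 (y axis, reads divided by the size factor) in the 4 groups, with 1 point per heart, bars for means and error bars for the SD of 5 hearts. Mutant and WT hearts overlap for all 3 genes in both cohorts.

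Of the 4 members that could be tested in the main fit, Stag3, E2f6, Pcgf6 and L3mbtl2, 0 were past the adjusted threshold of 0.05 in limma, edgeR or DESeq2 in either strain. None was under an unadjusted p of 0.05, the smallest being 0.238 in Dp3Tyb and 0.492 in Ts1Rhr, where 2.80% and 5.52% of all genes tested were. Over all genes, 8 of 14763 were past the threshold in Dp3Tyb (0.0542%) and 4 of 14867 in Ts1Rhr (0.0269%), so 0 of 4 does not set these genes apart from the rest. The difference between strains was past the threshold for 2 of 15348 genes (0.013%) and for none of these 4, which had adjusted p = 0.99966 each in the limma contrast of all 20 libraries.

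**Figure D4:**
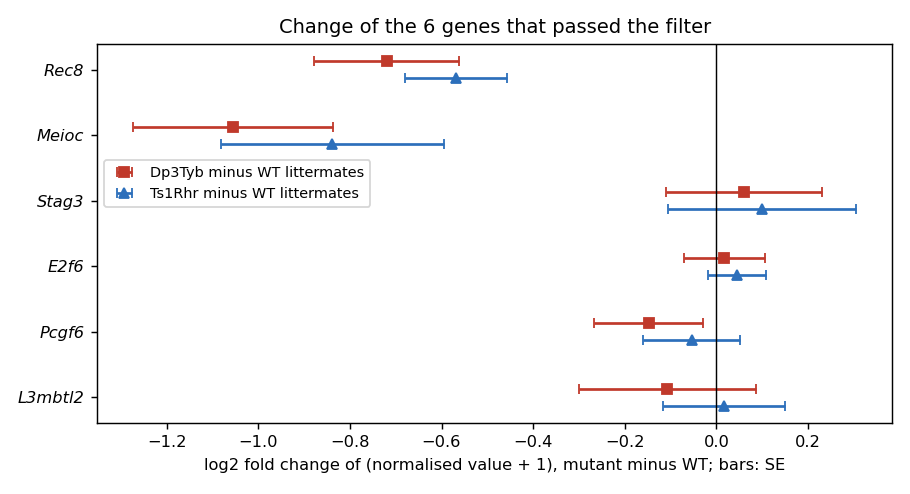
Log2 fold change of (normalized value + 1), mutant minus WT littermates (x axis), for the 6 genes that passed the filter, with squares for Dp3Tyb, triangles for Ts1Rhr and bars for the SE. Rec8 and Meioc, which were selected for being low, lie at -0.57 to -1.05, and the 4 other genes lie between -0.15 and 0.10.

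The other subunits of PRC1.6 were described as a list of 13. None passed in limma, edgeR or DESeq2, and 0 in Dp3Tyb and 1 in Ts1Rhr were under an unadjusted p of 0.05 (2.80% and 5.52% of all genes tested). Fold changes were below 0 for 9 of 13 in Dp3Tyb (median -0.02) and for 13 of 13 in Ts1Rhr (median -0.04), against 51.1% and 50.4% of all genes. The 1 gene was Mga, the scaffold that pairs with MAX, at -0.18 ± 0.14 and -0.30 ± 0.10 (SE). Cbx3 and Hdac2, the highest per kb, were at -0.10 ± 0.06 and -0.05 ± 0.18 in Dp3Tyb and at -0.04 ± 0.06 and -0.15 ± 0.13 in Ts1Rhr.

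Other silencers of germline genes, 13 genes of DNA methylation, H3K9 methylation and PRC2, had 11 and 10 fold changes below 0 (51.1% and 50.4% over all genes), with medians of -0.03 and -0.06. None passed in any of the 3 tools, and 1 of 13 in Dp3Tyb and 2 of 13 in Ts1Rhr were under an unadjusted p of 0.05, against 2.80% and 5.52% of all genes. Trim28, a corepressor, was the highest per kb and was at -0.01 ± 0.17 and 0.08 ± 0.11. Dnmt1, the maintenance DNA methyltransferase, was at -0.13 ± 0.07 and -0.08 ± 0.08, and its recruiter Uhrf1 at -0.17 ± 0.06 and -0.13 ± 0.06. Ezh2, the PRC2 methyltransferase, was at -0.12 ± 0.10 and -0.23 ± 0.08.

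The 7 other E2F factors had 6 and 4 fold changes below 0 (51.1% and 50.4% over all genes), with medians of -0.09 and -0.0027, and none passed in any tool. E2f8 and E2f7, repressive members of the family, had the largest mean fold changes, at -0.20 ± 0.16 and -0.19 ± 0.10 in Dp3Tyb and at -0.31 ± 0.13 and -0.26 ± 0.09 in Ts1Rhr. In Ts1Rhr these 2 of the 7 were under an unadjusted p of 0.05, against 5.52% of all genes, and 0 were in Dp3Tyb, against 2.80%. E2f3 was at -0.09 ± 0.07 and 0.03 ± 0.06.

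Of 3 genes listed for their work with MEIOC or in entry into meiosis, 2 were tested and none passed in limma, edgeR or DESeq2. At an unadjusted p under 0.05 there were 0 of 2 in each strain, against 2.80% and 5.52% of all genes. Ythdc2, the RNA helicase that MEIOC binds, was at a mean value of 504 and had log2 fold changes of -0.11 ± 0.09 in Dp3Tyb and -0.10 ± 0.08 in Ts1Rhr (limma adjusted p = 0.99996 and 0.795). Rbm46, an RNA-binding partner, was at 33.9, with 0.46 ± 0.28 and -0.51 ± 0.27 (limma adjusted p = 0.99996 and 0.795). Stra8, the inducer of meiosis, had 0 reads in every heart.

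Many other meiotic genes were too low to test. Of 35 listed, 33 were found, 2 of these had 0 reads, 11 had a mean value under 1, and 14 were high enough to be tested. None passed in limma, edgeR or DESeq2, and 0 in Dp3Tyb and 1 in Ts1Rhr were under an unadjusted p of 0.05 (2.80% and 5.52% over all genes). Fold changes were below 0 for 8 of 14 in Dp3Tyb (median -0.04) and for 12 of 14 in Ts1Rhr (median -0.28), against 51.1% and 50.4% of all genes. Syce2, of the synaptonemal complex, was the highest per kb and was at -0.02 ± 0.11 and -0.10 ± 0.14. Psmc3ip, a recombination factor also active in somatic cells, was at -0.21 ± 0.15 and -0.39 ± 0.16. Brme1 and Iho1 had the largest mean fold changes, at 0.65 ± 0.65 and -0.19 ± 0.34 in Dp3Tyb and at 0.20 ± 0.23 and -0.42 ± 0.25 in Ts1Rhr, with errors as large as the values in Dp3Tyb.

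Other germline genes gave no call. Of 20 listed, 8 were tested in Dp3Tyb and 7 in Ts1Rhr, and none passed in any of the 3 tools. At an unadjusted p under 0.05 there was 1 of 8 in Dp3Tyb and 0 of 7 in Ts1Rhr, against 2.80% and 5.52% of all genes. Fold changes were below 0 for 2 of 8 (median 0.03) and for 4 of 7 (median -0.01), against 51.1% and 50.4% of all genes. Mov10l1, an RNA helicase of the piRNA pathway, was the highest at 74.2 per kb and was at -0.04 ± 0.11 and -0.01 ± 0.09. Tdrkh, of the same pathway, was at 0.11 ± 0.10 and 0.01 ± 0.12. Brdt, a testis bromodomain protein, was at 0.16 ± 0.16 and -0.28 ± 0.26, and Tdrd1 at -0.16 ± 0.18 and -0.16 ± 0.23. The 1 gene under an unadjusted p of 0.05 was Slc25a31, an ADP/ATP carrier of the testis, named after its values were seen, with 187 reads in all. It was at 7.89 ± 3.62 in WT and 14.4 ± 2.54 in Dp3Tyb (SD over 5 hearts), with overlap, and had the highest fold change of the list in Dp3Tyb, 0.89 ± 0.33 (SE, limma adjusted p = 0.99996). In Ts1Rhr it did not pass the filter on low values.

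Germ cell markers were examined because a few germ cells in a sample would carry these transcripts. Pou5f1 had 1 read in all 20 libraries, Dppa3 had 9, Tfap2c 17 and Nanos3 55, and the summed level of the 8 markers came mostly from Sall4, Prdm1, Dnd1 and Nanog, the first 2 of which other embryonic cells also express. The sum was 103 to 115 in WT and 81.1 to 99.4 in Dp3Tyb, without overlap, and 71.6 to 139.9 in WT and 88.8 to 121 in Ts1Rhr. Taken singly, 0 of the 4 tested markers lay wholly below WT in Dp3Tyb, against 0.474% of all genes tested. All 4 tested markers had fold changes below 0 in Dp3Tyb and 1 of 4 had in Ts1Rhr, against 51.1% and 50.4% of all genes. None passed in any tool, and 1 of 4, Prdm1, in Dp3Tyb and 0 in Ts1Rhr were under an unadjusted p of 0.05 (2.80% and 5.52% over all genes). Their part in the levels of Rec8 and Meioc was not tested.

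Markers of other cells that a dissected heart can hold were also examined, and none passed in limma, edgeR or DESeq2. Of 7 tested lung and foregut markers, 0 were below 0 in Dp3Tyb (median log2 fold change 1.86) and 6 in Ts1Rhr (median -1.76), so their signs were opposite in the strains. Their summed level overlapped between groups, at 558 to 1065 in WT and 607 to 1206 in Dp3Tyb, and at 720.4 to 1162 in WT and 686 to 1039 in Ts1Rhr. All 6 erythroid markers were above 0 in both strains (medians 0.23 and 0.26), as were all 6 macrophage markers (0.23 and 0.33). The macrophage sum was 1054 to 1795 in WT and 1557 to 1873 in Dp3Tyb, and 1192 to 1471 in WT and 1278 to 2040 in Ts1Rhr. Neural crest and ganglion markers had medians of 0.65 and -0.16 over 5 tested genes, and the 9 cardiomyocyte markers of -0.08 and -0.02. At an unadjusted p under 0.05 there were 1 of 6 macrophage markers in Dp3Tyb and 4 of 6 in Ts1Rhr, 2 of 7 lung and foregut markers in Ts1Rhr, and 1 of 5 neural crest and ganglion markers in Dp3Tyb. The other counts for these 5 lists were 0, and the shares over all genes were 2.80% and 5.52%. Their part in the result was not tested.

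Neighbouring genes were examined because transcription can run on between genes. No annotated gene overlaps Rec8 or Meioc. Ipo4, on the opposite strand, ends 4 bases from Rec8 and Irf9 lies 7971 bases away. The others within 50 kb were Dcaf11, Fitm1, Psme1, Emc9, Psme2, Rnf31, Tm9sf1, Mdp1, Nedd8, Gmpr2 and Tssk4, the last too low to test. Of these 13 genes 12 were tested, and none was past the threshold in limma, edgeR or DESeq2. Their log2 fold changes were between -0.10 and 0.17 in Dp3Tyb (median -0.0032) and between -0.10 and 0.23 in Ts1Rhr (median 0.11), the last for Ipo4 (0.23 ± 0.10). At an unadjusted p under 0.05 there were 0 of 12 in Dp3Tyb and 1 of 12 in Ts1Rhr, against 2.80% and 5.52% of all genes. Of 6 annotated genes within 50 kb of Meioc, Psmb5-ps, Gm34392, Gm39501 and Gm11637 were not tested. The other 2 were tested and 0 passed in limma, edgeR or DESeq2, with 0 at an unadjusted p under 0.05. Ccdc43 was at 0.03 ± 0.07 and 0.0010 ± 0.07 and 2810433D01Rik at -0.07 ± 0.26 and 0.27 ± 0.31. No tested neighbour had a fold change as low as that of Rec8 or Meioc. These 2 genes had been selected for low values, so nothing is read from that comparison.

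Within groups, the level of Rec8 moved with the mitochondrial share. Rec8 had been chosen on these libraries for its difference between groups, which was removed here. With group means removed, Pearson's r was -0.76 (permutation p = 0.00062, adjusted p = 0.0031 over 5 relations tested) and Spearman's rho was -0.63 (permutation p = 0.0033, adjusted p = 0.0165) over 20 hearts. Leaving out the 2 hearts farthest from the median share gave r = -0.59 (permutation p = 0.0347) and rho = -0.46 (p = 0.0878). Within the Dp3Tyb cohort r was -0.80 (permutation p = 0.0343) and rho -0.33 (p = 0.249 by permutation). In the Ts1Rhr hearts with their WT littermates they were -0.66 and -0.76 (permutation p = 0.0173 each). Among the 13 libraries under 10% mitochondrial, r was 0.04 (permutation p = 0.893) and rho 0.13 (permutation p = 0.673). The relation was thus detected only with libraries over 10% included. Those 13 covered only 4.85% to 7.17%, too narrow a range to decide whether Rec8 moved with the share there. This split was added after the data were seen.

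Rec8 also moved with total reads (r = 0.65, permutation p = 0.00506, adjusted p = 0.0126; rho = 0.51, adjusted p = 0.0592), but not without the 2 hearts farthest from the median depth (r = 0.39, permutation p = 0.139). Within cohorts r was 0.80 (permutation p = 0.00601) in Dp3Tyb and 0.27 (permutation p = 0.393) in Ts1Rhr. Meioc went the other way, with r = 0.55 against the mitochondrial share (permutation p = 0.0324, adjusted p = 0.0541) and r = -0.52 against total reads (permutation p = 0.0457, adjusted p = 0.0571). Neither passed the correction, and both fell near 0 without the 2 farthest hearts (r = 0.13 and -0.07, permutation p = 0.657 and 0.806). Within the Dp3Tyb and Ts1Rhr cohorts r was 0.51 and 0.62 for the share and -0.51 and -0.58 for reads, with permutation p between 0.0826 and 0.276. WT replicate 5 of the Dp3Tyb cohort and WT replicate 4 of the Ts1Rhr cohort had the highest shares (19.5% and 17.2%). They were also the 2 shallowest libraries. The next shallowest, WT replicate 1 of the Dp3Tyb cohort, had the lowest share (4.85%). The relations to share and to depth thus rest partly on the same hearts. Whether either gene moved with one apart from the other was not tested.

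**Figure D5:**
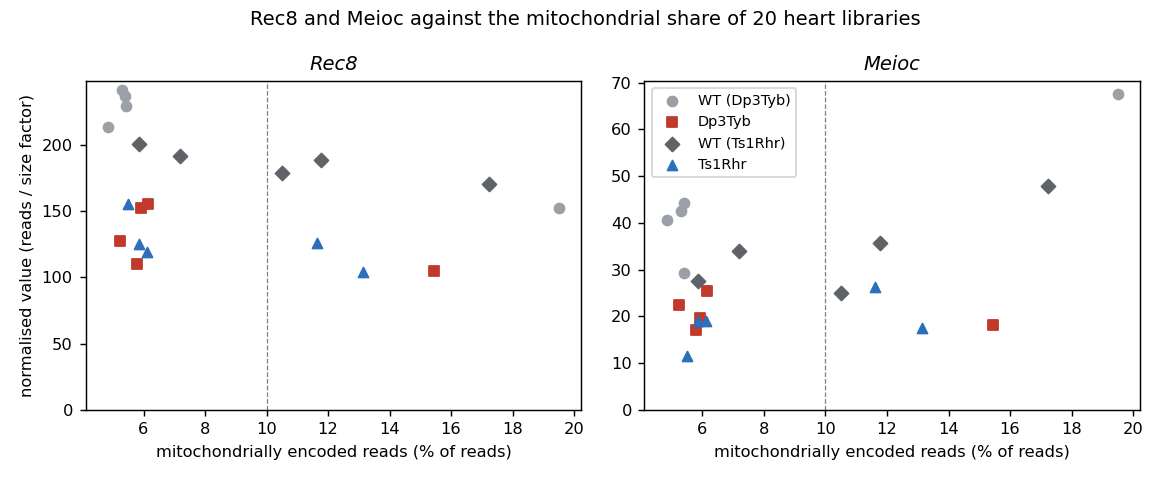
Normalized values of Rec8 and Meioc (y axis, reads divided by the size factor) against the share of mitochondrially encoded reads (x axis, % of reads) in 20 hearts, with 1 point per heart and a dashed line at 10%. For Rec8 every mutant heart lies below every WT heart on the same side of the line. Rec8 was selected for lower values in mutant hearts, so nothing is read from this. The WT hearts at 17.2% and 19.5% are the lowest for Rec8 and the highest for Meioc of their groups.

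No relation between Rec8 and Meioc was detected within groups (r = -0.37, permutation p = 0.139; rho = -0.26, permutation p = 0.297). The sign turned without the 2 hearts farthest from the median of Meioc (r = 0.22, permutation p = 0.352). Within the Dp3Tyb cohort r was -0.31 (permutation p = 0.399) and rho 0.04 (permutation p = 0.921), so the sign depended on the measure. In the Ts1Rhr cohort r was -0.51 (permutation p = 0.166) and rho -0.32 (permutation p = 0.400).

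Over all 20 hearts, group differences included, the genes most like Rec8 among 14652 compared were Ky (r = 0.80), Mxd4 (0.79), Pdzd2 (0.79), Rrm2 (0.78) and Dyrk1b (0.78). Those most like Meioc were Bard1 (r = 0.85), Cdkl2 (0.82), Lrp2bp (0.82), Chek1 (0.82) and Stmn1 (0.81). Each of these 10 genes had fold changes below 0 in both strains, which follows from the way they were chosen. Ky, a muscle protein gene, was at -1.21 ± 0.17 in Dp3Tyb and -0.90 ± 0.20 in Ts1Rhr (SE). Chek1, a checkpoint kinase, was at -0.18 ± 0.08 in both, and Bard1, the partner of BRCA1, at -0.21 ± 0.07 and -0.23 ± 0.08. Rec8 and Meioc themselves had r = 0.62, which placed Meioc 105th for Rec8 and Rec8 274th for Meioc. These correlations share the libraries and their depth and are given as a description.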

How the data were processed

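The authors deposited 1 table of normalized values for 48795 Ensembl genes in 20 libraries, a signal made by dividing the reads of a library by its size factor. Per the submitters' processing notes, Trimmomatic 0.36, STAR 2.5.2a, RSEM 1.2.31, DESeq and DESeq2 were used with GRCm38. The study tested differential expression with DESeq2 at an adjusted p under 0.05. The roles of the other tools, the annotation and the strand setting are not given in the sources used here. In each library 100% of values were whole multiples of 1 step (tolerance 0.001), and the step was the reciprocal of the recomputed median-of-ratios factor within a relative difference of 3.55e-15, so whole reads were recovered. Counts from RSEM are estimates rounded to whole numbers, and without molecular identifiers their counting error is a lower limit.

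Each strain was compared with its WT littermates by limma 3.58.1 (R 4.3.3) on log2(value + 1), with a trended, robust prior, 2-sided, Benjamini-Hochberg adjustment and a threshold of 0.05, over genes that reached a value of 10 in 5 or more of the 10 libraries. The strains were compared by an interaction contrast over all 20 libraries. Scripts were tested on simulated data. Alternatives were edgeR 4.0.16 and DESeq2 1.42.0 on whole reads, pseudocounts of 0.5 and 5, no filter, a mitochondrial term, array weights, and leaving out libraries. Relations between hearts used 100000 permutations within groups. Nothing states that hearts of a group came from separate litters, so p-values measure the spread between these libraries.

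Symbols and exon lengths came from GENCODE vM39 (44565 of 48795 identifiers, 91.3%). Of the listed genes Six6os1 and Spata22 were not matched. Coordinates and promoters came from RefSeq (GRCm38.p6). The 10 genes, the lists and the tests were chosen with earlier results of these data known. The text names all 10 genes, in each list any gene past the threshold, the 2 highest per kb and the 2 with the largest absolute fold change averaged over the strains, genes within 50 kb of Rec8 or Meioc, and the 5 genes most like each. For the marker lists counts and medians are given in place of most names.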

Additional observations from a re-analysis of the deposited data

Results flagged for a closer look

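Hormad1 gave the only values that stood apart from their groups by Dixon's test (critical value 0.71 for 5 hearts), in 3 of 35 groups of member values examined, where chance flags about 1 in 20 groups. Its value was 0.761 in WT replicate 2 of the Dp3Tyb cohort (1 read), 1.56 in Dp3Tyb replicate 2 (2 reads) and 0.976 in Ts1Rhr replicate 2 (1 read), while the other 4 hearts of each group were at 0. In a group of zeros any single read stands apart in this way.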

How the results depend on the processing

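Of 384 values of the 6 genes that passed the filter under an alternative, 360 kept their direction and 24 changed sign. Stag3, E2f6, Pcgf6 and L3mbtl2 did not cross the threshold under any alternative run. Rec8 stayed between -0.84 and -0.65 in Dp3Tyb and between -0.65 and -0.50 in Ts1Rhr, and Meioc between -1.19 and -0.86 and between -0.97 and -0.69.

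In Ts1Rhr L3mbtl2 was -0.071 with a mitochondrial term and -0.048 with array weights. The difference between strains was 0.0046 for Stag3 with a mitochondrial term, 0.0090 for E2f6 with array weights, and, without libraries over 10% mitochondrial, 0.027 for Meioc (-0.22 with all libraries) and 0.026 for Stag3. Leaving out 1 heart at a time gave, in Dp3Tyb, -0.044 to 0.16 for Stag3, -0.023 to 0.089 for E2f6 and -0.26 to 0.033 for L3mbtl2, in Ts1Rhr -0.052 to 0.21 for Stag3, -0.12 to 0.0038 for Pcgf6 and -0.077 to 0.10 for L3mbtl2, and between strains -0.16 to 0.11 for Stag3, -0.067 to 0.044 for E2f6 and -0.28 to 0.016 for L3mbtl2.

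Genes past the threshold in Dp3Tyb (8) became 30 with DESeq2, 4 with no filter, 45 with a mitochondrial term, 57 with array weights and 30 without libraries over 10% mitochondrial, and were 2 to 13 without 1 heart, 13 being without WT replicate 5. In Ts1Rhr (4) they became 24 with DESeq2, 25 with a mitochondrial term, 16 with array weights and 0 without libraries over 10% mitochondrial, which leaves 5 hearts, and were 1 to 6 without 1 heart. Between strains (2) they were 0 with no filter and 0 to 3 without 1 heart. The cause was not tested. In every limma fit the groups compared shared 1 estimate of spread per gene, also where a group was left with 4 hearts or fewer.

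For the relations, r of Rec8 with Meioc was 0.22 without the 2 farthest hearts. The alternative within the 13 libraries under 10% mitochondrial was added after the data were seen. It gave r = 0.044 for Rec8 and 0.35 for Meioc with the share, and 0.17 and 0.083 with total reads. Meioc with the share was 0.13 without the 2 farthest hearts and 0.51 and 0.62 within the cohorts, Rec8 with reads 0.39 without those hearts and 0.27 within Ts1Rhr, and Meioc with reads -0.067, -0.51 and -0.58.

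No paired analysis was possible because the labels give no replicate numbers that the groups share, and replicates are numbered here in accession order only. Depth limits Smc1b, Sycp3, Hormad1 and Tex101 most, and Meioc to a lesser degree.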
